A study of Saccharomyces cerevisiae with 24 samples.

Results

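The genes described are the Hsp90 chaperone of budding yeast and its co-chaperones, chosen by name as 10 genes: HSP82, HSC82, STI1, AHA1, HCH1, CPR6, CPR7, SBA1, CDC37 and CNS1. All 10 were found among the 7126 genes counted, and all 10 passed the filter on low counts that left 6253 genes for testing. RNA was sequenced from haploid Saccharomyces cerevisiae of the BY4741 background in a strain that lacks CNB1, cnb1Δ, and in the wild type (WT). Both strains were MATa his3delta1 ura3delta0 leu2delta0 lys2delta0 and carried HYG-TEFp-GFP(Y66F) on chromosome VI, a GFP construct with a resistance gene. The mutant carried cnb1delta::KanMx in addition, which removes CNB1, the regulatory subunit of the calcium-activated phosphatase calcineurin. Cells grew in a synthetic medium whose nitrogen source was ammonium chloride. Samples were taken from each strain before treatment (0 h) and after 12, 48 and 72 h in 200 mM CaCl2, with a dilution every 12 h that kept growth logarithmic. The 8 groups held 3 libraries each, and the study asked which responses to long CaCl2 stress depend on calcineurin. No culture without CaCl2 was taken at 12, 48 or 72 h, so CaCl2 and time in culture cannot be told apart in a change from 0 h.

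Hsp90 is an ATP-driven dimeric chaperone that completes the folding of kinases, transcription factors and other clients. Yeast makes it from a pair of near-identical genes, HSC82, known for steady high expression, and HSP82, known for induction by heat. Co-chaperones steer its cycle: Sti1 hands over clients from Hsp70, Aha1 and its relative Hch1 stimulate the ATPase, Sba1 (p23) holds the closed state, Cpr6 and Cpr7 are prolyl isomerases, Cdc37 brings kinases, and Cns1 is an essential partner. Hsf1, the heat shock factor, acts on many of these genes through heat shock elements, and the catalytic subunit of calcineurin is itself known to bind Hsp90 in yeast.

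Because HSP82 and HSC82 are alike, their sequences bear on whether reads can be assigned to one of them. In the R64 genome HSP82 (YPL240C) lies at chrXVI:96496-98625 on the minus strand and HSC82 (YMR186W) at chrXIII:632355-634472 on the plus strand, each a single coding exon. Their coding sequences were identical at 92.4% of 2115 aligned bases and their translated products at 97.7% of 704 aligned residues. Of the 50-base stretches of HSP82, 6.39% occur elsewhere in the genome, and of those of HSC82, 6.43%, in each case in the other paralog. For 100-base stretches the shares were 0.689% and 0.693%, and the other 8 genes shared none of either length. The 60-base window in which the paralogs differ most is shown to let the reader see what separates their reads, with the 14 differing bases in capitals. It lies at chrXVI:97347-97406 (minus strand) and chrXIII:633562-633621 (plus strand).
HSP82: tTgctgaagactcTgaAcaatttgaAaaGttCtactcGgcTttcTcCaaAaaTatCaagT
HSC82: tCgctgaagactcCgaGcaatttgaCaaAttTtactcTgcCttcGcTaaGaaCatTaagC
How the counting treated reads that match both genes is not given in the sources used here, so each paralog's level carries that uncertainty.

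The 500 bases upstream of each start codon were searched on both strands for heat shock elements, since several of the genes moved together. The search for 3 alternating units used GAANNTTCNNGAA and TTCNNGAANNTTC and found a match in 2 of the 10 genes, STI1 and AHA1, against 1.48% of 6000 promoters. These matches are shown with 5 bases on each side and the units in capitals. The STI1 (YOR027W) sites lie at chrXV:380806-380828 and chrXV:380832-380854 and the AHA1 (YDR214W) site at chrIV:892569-892591, all on the plus strand.
STI1, upstream site: atatcTTCgtGAAgaTTCgtgta
STI1, downstream site: tgataGAAcaTTCcaGAAaaaaa
AHA1: caatgGAAttTTCtaGAAgaaaa
With 2 units only (GAANNTTC or TTCNNGAA, which the longer motifs contain), 8 of the 10 genes had a match, against 35.2% of promoters, and CPR7 and CNS1 had none. One such site upstream of each Hsp90 gene and of CPR6 is shown to set beside the longer ones, at chrXVI:98845-98868 (minus strand), chrXIII:632130-632153 (plus strand) and chrXII:573334-573357 (minus strand).
HSP82: tcttttttTTCtaGAAcgccgtgg
HSC82: acttttctTTCtaGAAggtgaaag
CPR6: ctatgagcTTCtaGAAtatttttc
The stress response element AGGGG or its reverse CCCCT was found upstream of 2 of the 10, HSP82 and SBA1, against 34.1% of promoters. GNGGCNCA, a short form of the element bound by the calcineurin-dependent factor Crz1, was found on either strand upstream of 0 of the 10, against 7.67% of promoters. These matches are letters in a window and do not show binding.

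Total counts were 18843220 to 22250806 per library. CNB1 had 0 to 23 counts in cnb1Δ libraries, against 996 to 3320 in WT libraries, and URA3 and LEU2 had 0 in every library. MATa-specific genes were present throughout, with a summed level of 6 genes of 1105 to 1243 CPM in cnb1Δ and 496.9 to 641.8 CPM in WT at 12 h, while the alpha-factor genes had at most 12 counts. Among the other MATalpha-specific genes listed, STE3 had 2 to 129 counts and SAG1 had 536 to 811, so SAG1 was counted in every library. Replicates were compared by a chi-square test of their counts, which gave 4.61 to 324 per degree of freedom, so no pair was within sampling noise. In cnb1Δ, replicates 1 and 3 were the closest pairs, at 5.39 at 0 h and 4.61 at 12 h, where pairs with replicate 2 gave 32 to 55.9. The labels speak of triplicate time courses and do not say that cultures were independent, so p-values measure the spread between these samples. In bulk RNA, fewer cells with a transcript and less of it per cell cannot be told apart.

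By the deposited TPM values, which are per length, the 10 genes spanned a wide range. Before treatment, HSC82 was highest in both strains, at 475 ± 34.1 TPM in cnb1Δ and 424 ± 21.5 TPM in WT (SD, n = 3). SBA1 followed at 264 ± 9.27 TPM in cnb1Δ and 251 ± 4.26 TPM in WT. HSP82 was lowest, at 19 ± 2.67 TPM in cnb1Δ and 15.5 ± 1.24 TPM in WT. In between came HCH1, CPR6, AHA1, CNS1, STI1, CDC37 and CPR7 in that order in both strains. The ranges of AHA1 and CNS1 overlapped in both strains, as did those of CNS1 and STI1 in cnb1Δ. At 12 h HSP82 stood at 50.9 ± 2.05 TPM in cnb1Δ, above CDC37 and CPR7, whereas in WT it was still last at 13.1 ± 3.37 TPM. Also at 12 h, HSC82 was above SBA1 in cnb1Δ, and SBA1 (354 ± 11.8 TPM) was above HSC82 (325 ± 13 TPM) in WT, without overlap in either strain.

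**Figure D1:**
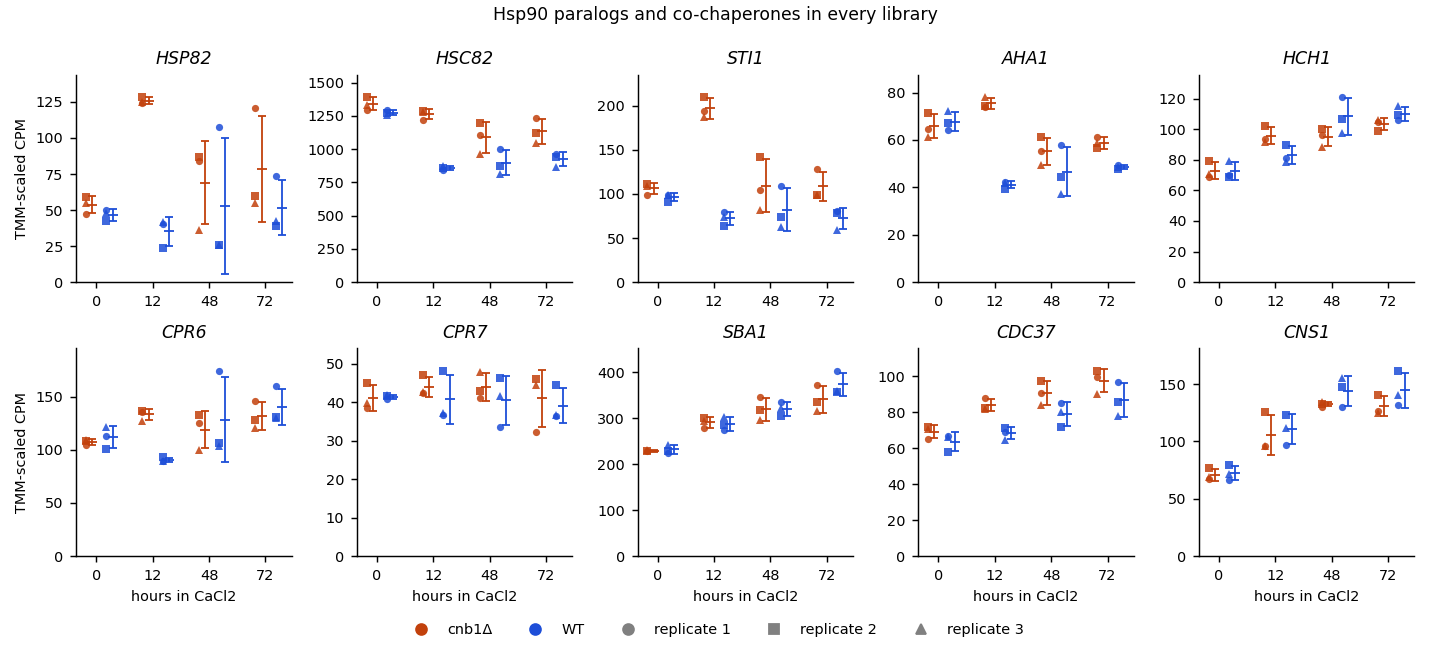
Level of each of the 10 genes in every library, in CPM scaled by trimmed mean of M-values (TMM), against hours in CaCl2. Points are libraries, with cnb1Δ left of WT and the symbol giving the replicate number; bars are means ± SD of 3 libraries. HSP82, STI1 and AHA1 of cnb1Δ at 12 h lie above all WT libraries at 12 h, and HSP82 at 48 and 72 h spreads widely within a group.

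After 12 h in CaCl2, 6 of the 10 genes were higher in cnb1Δ than in WT and 0 were lower: HSP82, HSC82, STI1, AHA1, CPR6 and CDC37. Of all genes tested, 8.43% were called higher in this comparison and 6.96% lower, 527 and 435 genes. Under total count scaling these were 635 and 240, with the median of all genes shifted to 0.107. The median log2 fold change was 0.43 over the 10 genes and -0.00482 over all genes. The 10 genes were chosen with earlier results of these data known, so these figures are no independent test. Calls rest on an adjusted p under 0.05 in edgeR's quasi-likelihood test, two-sided, with Benjamini-Hochberg adjustment over all genes tested, and values below are TMM-scaled CPM unless named otherwise. CPM is not corrected for length, so it serves to compare libraries and not genes.

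HSP82 had 124, 129 and 125 CPM in the cnb1Δ libraries at 12 h, against 40.4, 23.6 and 41.5 CPM in the WT libraries. The cnb1Δ values lay close together, and none of the WT values came near them. The log2 fold change was 1.84 ± 0.46 (SE, n = 3 each, adjusted p = 0.00945). Without WT replicate 2, which was the lowest, the log2 fold change was 1.62 and the call was lost. The adjusted p was then 0.05, the highest over the 17 alternatives, whose lowest was 2.05e-05. HSC82 had 1221, 1288 and 1276 CPM in cnb1Δ, against 844, 855 and 874 CPM in WT, again without overlap. Its log2 fold change was 0.56 ± 0.10 (adjusted p = 0.000556). Since HSC82 supplies most Hsp90 transcripts, the summed counts of both genes differed by a log2 fold change of 0.64 ± 0.11 (adjusted p = 0.000621).

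STI1, which links Hsp70 to Hsp90, had 194, 210 and 187 CPM in cnb1Δ at 12 h, against 79.0, 64.1 and 73.6 CPM in WT. Every cnb1Δ library was more than double any WT library. The log2 fold change was 1.45 ± 0.19 (adjusted p = 4.49e-05). AHA1, the activator of the Hsp90 ATPase, had 73.9, 74.4 and 78.2 CPM in cnb1Δ, against 42.4, 39.4 and 41.8 CPM in WT. Neither group's values reached the other's, and the log2 fold change was 0.87 ± 0.11 (adjusted p = 4.35e-05). Its relative HCH1 had 93.3, 102.2 and 91.9 CPM in cnb1Δ, against 81.4, 89.8 and 78.3 CPM in WT. These groups did not overlap either, but the difference was not called (0.20 ± 0.09, adjusted p = 0.127).

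The isomerase CPR6 had 136, 137 and 128 CPM in cnb1Δ, against 89.8, 92.9 and 89.5 CPM in WT, with a log2 fold change of 0.56 ± 0.15 (adjusted p = 0.0169). CDC37, the kinase-specific partner, had 87.8, 82.5 and 81.7 CPM in cnb1Δ, against 69.0, 71.3 and 64.7 CPM in WT, with a log2 fold change of 0.30 ± 0.09 (adjusted p = 0.0312). Groups did not overlap for either gene, but their calls were the least firm of the 6. The CPR6 call was lost without cnb1Δ replicate 2, WT replicate 1 or WT replicate 3, with adjusted p-values of 0.05 to 0.0583 (0.000233 to 0.0583 over 18 alternatives). The CDC37 call was lost without any 1 of the 6 libraries but WT replicate 2, at 0.0529 to 0.123, under total count scaling at 0.0501, and in limma on TPM (0.0126 to 0.123 over 18 alternatives). The other isomerase, CPR7, and SBA1 and CNS1 had log2 fold changes of 0.11 ± 0.14, 0.02 ± 0.08 and -0.06 ± 0.11, and none was called.

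**Figure D2:**
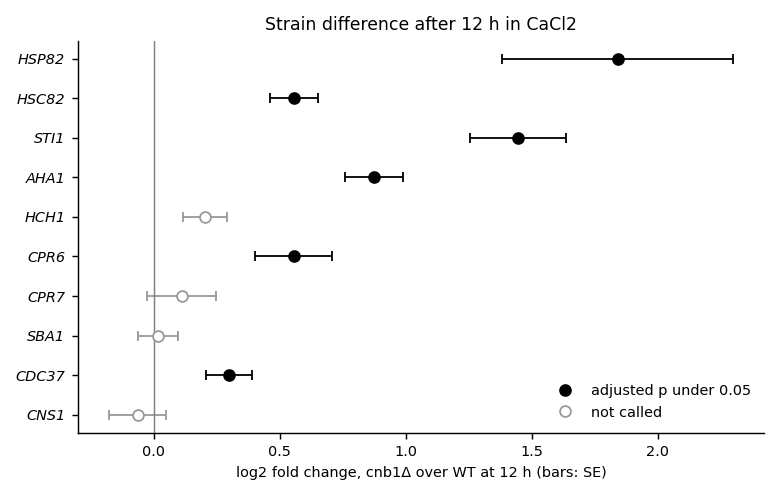
Log2 fold change of cnb1Δ over WT at 12 h for each gene, with bars of 1 SE (n = 3 libraries each). Filled points passed an adjusted p under 0.05; HSP82 stands highest at 1.84, followed by STI1 at 1.45 and AHA1 at 0.87.

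Before treatment, 0 of the 10 genes were called between cnb1Δ and WT at 0 h in edgeR, 0 at an unadjusted p under 0.05 and 0 in DESeq2, in a comparison in which 0.032% of all genes were called. The 10 log2 fold changes at 0 h were between -0.06 (CPR6) and 0.20 (HSP82). A test of the difference between the 12 h responses, cnb1Δ minus WT, called 2 of the 10 genes, both positive, where 0.976% of all genes were called higher. They were STI1 at 1.31 ± 0.27 (adjusted p = 0.0111) and AHA1 at 0.92 ± 0.16 (adjusted p = 0.00424). The difference for HSP82 was larger but less certain, at 1.64 ± 0.64 (adjusted p = 0.223). HSC82 gave 0.48 ± 0.13 (adjusted p = 0.0731) and CPR6 gave 0.62 ± 0.21 (adjusted p = 0.172). All 3 were called, 5 genes in all, when the 0 h and 12 h groups were fitted without the later ones, with adjusted p-values of 0.000805, 0.00463 and 0.00271. DESeq2 called HSC82 as well as STI1 and AHA1. Over all alternatives the adjusted p spanned 0.000805 to 0.415 for HSP82, 0.0025 to 0.353 for HSC82 and 0.00271 to 0.482 for CPR6. The STI1 call was lost in limma on TPM, at an adjusted p of up to 0.0719, and the AHA1 call in limma on TPM without a filter, at 0.0551. HCH1 (0.20 ± 0.12), CPR7 (0.12 ± 0.19), SBA1 (0.03 ± 0.11), CDC37 (0.18 ± 0.13) and CNS1 (-0.03 ± 0.16) were not called in any setting.

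In cnb1Δ, 6 of the 10 genes were higher at 12 h than at 0 h, where 22.1% of all genes were called higher, and 0 were lower. All genes split into 1385 higher and 1264 lower, and under total count scaling into 2099 and 607, with a median of 0.221. HSP82 had 124, 129 and 125 CPM at 12 h, against 47.4, 59.1 and 54.9 CPM at 0 h, with a log2 fold change of 1.23 ± 0.45 (adjusted p = 0.0344). This call was lost without any 1 of the 6 libraries, with adjusted p-values of 0.0624 to 0.102 (2.99e-05 to 0.102 over 17 alternatives). The log2 fold change then stayed at 1.145 to 1.299, and 11 of the 17 alternatives kept the call. All 8 groups share an estimate of the spread in this fit. The SD of HSP82 ranged from 2.35 CPM in cnb1Δ at 12 h to 47.3 CPM in WT at 48 h. STI1 had 194, 210 and 187 CPM at 12 h, against 98.8, 111 and 109 CPM at 0 h, a log2 fold change of 0.89 ± 0.19 (adjusted p = 0.00104). The others were CNS1 (0.58 ± 0.11), HCH1 (0.39 ± 0.09), SBA1 (0.34 ± 0.08) and CDC37 (0.28 ± 0.09). The CDC37 call was lost without replicate 1 of either time. HSC82 (-0.09 ± 0.09), AHA1 (0.20 ± 0.11), CPR6 (0.31 ± 0.15) and CPR7 (0.10 ± 0.14) were not called. Total count scaling called 8 of the 10, adding AHA1 (0.40) and CPR6 (0.52), and gave 0.60 for HCH1, 0.55 for SBA1 and 0.48 for CDC37, all read against its shifted median.

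In WT, 2 of the 10 genes were higher at 12 h than at 0 h and 2 were lower, where 24.6% of all genes were called higher and 22.4% lower, 1541 and 1403 genes. Under total count scaling these were 2066 and 883, with a median of 0.182. The 2 higher and 2 lower of the 10 are near the shares over all genes. The genes that fell were HSC82 and AHA1. HSC82 had 844, 855 and 874 CPM at 12 h, against 1290, 1274 and 1258 CPM at 0 h, a log2 fold change of -0.57 ± 0.10 (adjusted p = 8.71e-05). AHA1 had 42.4, 39.4 and 41.8 CPM at 12 h, against 64.2, 67.0 and 72.2 CPM at 0 h, a log2 fold change of -0.72 ± 0.11 (adjusted p = 5.17e-05). The genes that rose were CNS1 (0.61 ± 0.11) and SBA1 (0.31 ± 0.08). STI1 stood at -0.42 ± 0.19 (adjusted p = 0.0743) and was called with the replicate number as a block, at -0.42 (adjusted p = 0.0385; 0.00527 to 0.467 over 18 alternatives). HSP82 stood at -0.41 ± 0.45 and was not called. Nor were CPR6 (-0.30 ± 0.15), HCH1 (0.19 ± 0.09), CDC37 (0.10 ± 0.09) and CPR7 (-0.02 ± 0.14). Other settings called CPR6 lower in 2 of 18 alternatives (adjusted p = 0.00825 to 0.696 over all) and HCH1 higher in 5 of 18 (0.022 to 0.283).

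**Figure D3:**
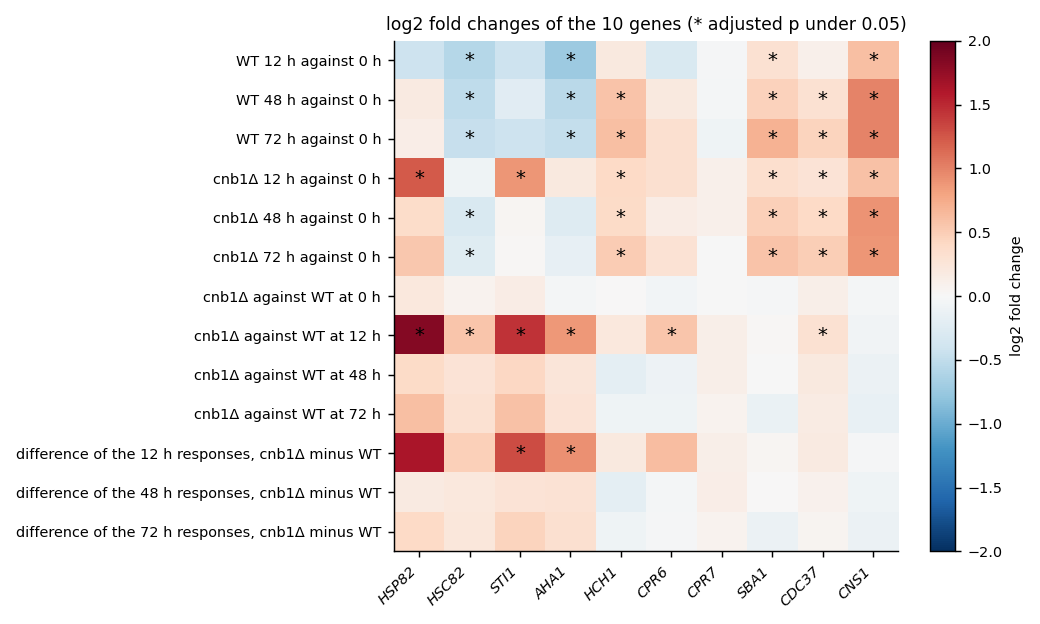
Log2 fold changes of the 10 genes (columns) in the 13 comparisons (rows), on a colour scale from -2 to 2, with an asterisk where the adjusted p was under 0.05. The strain difference at 12 h holds 6 asterisks, while the rows for the strains at 0, 48 and 72 h hold 0.

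At 48 and 72 h the genes followed 3 patterns. SBA1, CNS1, CDC37 and HCH1 rose in both strains: at both late times 4 of the 10 genes were higher than at 0 h, in cnb1Δ (where 28.9% and 31.6% of all genes were called higher) and in WT (33.7% and 34.7%). These counts are near the shares over all genes. CNS1 averaged 70.9, 105.9, 132.4 and 130.5 CPM at 0, 12, 48 and 72 h in cnb1Δ, and 72.6, 110.7, 144.1 and 144.7 CPM in WT. SBA1 averaged 229.4, 290.9, 319.6 and 341.2 CPM at those times in cnb1Δ, and 232.0, 287.7, 320.5 and 373.6 CPM in WT. For CNS1 and SBA1 no difference between the strains was called at any time. At 72 h against 0 h the log2 fold change of CNS1 was 0.88 ± 0.11 in cnb1Δ and 0.99 ± 0.11 in WT.

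HSC82 and AHA1 made up the second pattern, lower late than at 0 h. HSC82 was called lower in cnb1Δ at 48 h (-0.30 ± 0.10) and 72 h (-0.24 ± 0.10), where 26.4% and 28% of all genes were called lower. It was also called lower in WT at 48 h (-0.50 ± 0.10) and 72 h (-0.47 ± 0.10), where 30% and 29.8% were. AHA1 was called lower in WT at 48 h (-0.54 ± 0.11) and 72 h (-0.48 ± 0.11) and not in cnb1Δ (-0.25 ± 0.11 and -0.16 ± 0.11). In cnb1Δ at 48 h, 4 of 18 alternatives did call AHA1 lower, DESeq2 among them (-0.29, adjusted p = 0.0267; 0.0267 to 0.977 over all). At each late time 1 of the 10 genes was called lower in cnb1Δ and 2 in WT, which is not above the shares over all genes. The difference between strains in these late responses was not called for HSC82 or AHA1. These falls are relative to the other genes: scaling by total counts shifted the median of all genes to between 0.291 and 0.379 at 48 and 72 h. In cnb1Δ, 1807 genes higher and 1653 lower at 48 h became 2571 and 951, and 1978 and 1753 at 72 h became 2891 and 1026. In WT, 2108 and 1873 at 48 h became 3044 and 1082, and 2169 and 1865 at 72 h became 2992 and 1171. Under that scaling, and in limma on TPM, each of these late calls of HSC82 and AHA1 was lost, and under total count scaling HSC82 in cnb1Δ at 72 h turned to 0.05 (adjusted p = 0.747; 0.00147 to 0.888 over 17 alternatives). That last call was also lost with no filter on low counts (0.0507), in the compared groups alone (0.0862) and without cnb1Δ replicate 2 or 3 of 72 h or any 1 replicate of 0 h, and the 48 h call in cnb1Δ without replicate 3.

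HSP82, STI1, CPR6 and CPR7 had no call against 0 h at 48 or 72 h in either strain in edgeR with all libraries. Other settings called some of them. STI1 in WT at 72 h stood at -0.41 ± 0.19 and was called lower in 5 of 18 alternatives, DESeq2 among them (adjusted p = 0.0281; 0.0142 to 0.703 over all), and at 48 h in WT it was called without replicate 1 (-0.50, adjusted p = 0.0218; 0.0218 to 0.879). CPR6 at 72 h was called higher in 5 of 18 alternatives in each strain, with log2 fold changes of up to 0.59 in cnb1Δ and 0.63 in WT under total count scaling, which also called it in WT at 48 h. CPR7 in cnb1Δ at 48 h was called higher in 4 of 18, at 0.33 under total count scaling. HSP82 had the widest SE of the 10 genes. At 48 h it had 84.1, 87.0 and 36.1 CPM in cnb1Δ, against 108, 25.5 and 25.6 CPM in WT. At 72 h it had 121, 60.1 and 54.6 CPM in cnb1Δ, against 73.5, 38.8 and 42.1 CPM in WT. Replicate 1 was the highest library in 3 of these 4 groups, and in cnb1Δ at 48 h replicate 2 was. A list of 15 general stress genes also differed between these libraries. Relative to WT at 0 h, its mean log2 difference at 48 h was 0.455, -0.15 and -0.308 in cnb1Δ, against 1.26, -0.791 and -0.849 in WT. At 72 h it was 0.83, -0.012 and 0.0927 in cnb1Δ, against 0.555, -0.345 and 0.308 in WT. Both HSP82 and the list were highest in replicate 1 in 3 of the 4 groups, but in cnb1Δ at 48 h the list was highest in replicate 1 and HSP82 in replicate 2. The list mixes directions: at 72 h against 0 h, 3 of its genes were higher and 4 lower in cnb1Δ, and 6 higher and 4 lower in WT. Its part in the spread of HSP82 was not tested. At 12 h the list stood at -0.0531, -0.533 and -0.0225 in cnb1Δ, against -0.353, -1.29 and -0.302 in WT, and of its genes HSP12 was called higher (2.85 ± 0.80) and HOR7 lower (-1.94 ± 0.22) in cnb1Δ.

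**Figure D4:**
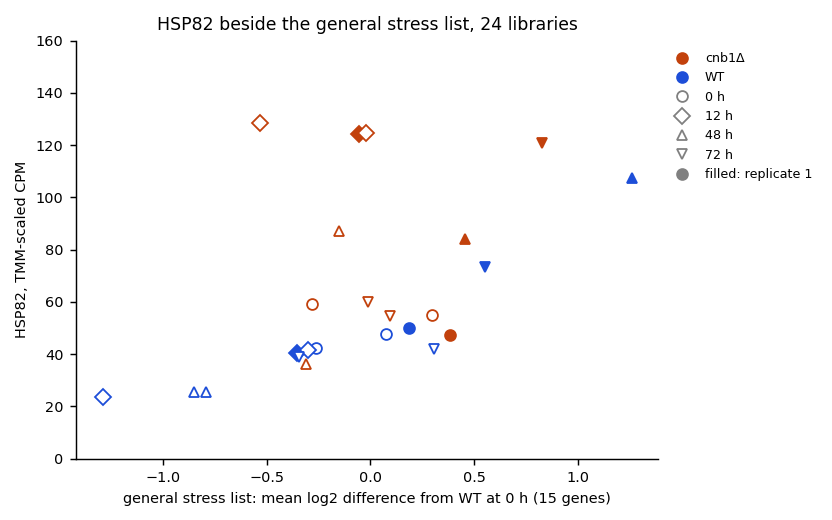
HSP82 level in TMM-scaled CPM against the mean log2 difference of 15 general stress genes from WT at 0 h, with 1 point for each of the 24 libraries. Colour gives the strain, shape the time and filling replicate 1. The 3 cnb1Δ libraries at 12 h have 124 to 129 CPM at list values of -0.533 to -0.0225, and WT replicate 1 at 48 h has 108 CPM at 1.26.

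Between strains, 0 of the 10 genes were called at 48 h in edgeR (5 at an unadjusted p under 0.05, 1 in DESeq2), where 4.89% of all genes were called. At 72 h, 0 were called in edgeR (3 at an unadjusted p under 0.05, 2 in DESeq2), where 9.12% of all genes were. Replicate numbers paired the strains at these times, and with the number as a block HSC82 was called at 48 h (0.28, adjusted p = 0.0428; 0.0212 to 0.713 over 17 alternatives) and at 72 h (0.29, adjusted p = 0.0229; 0.00424 to 0.237). STI1 was called with the block at 72 h (0.59, adjusted p = 0.0161; 0.0161 to 0.247 over 18 alternatives). Without WT replicate 1 at 48 h, 4 genes were called higher in cnb1Δ at 48 h, HSP82 at 1.44, STI1 at 0.68, AHA1 at 0.43 and HSC82 at 0.37, with adjusted p-values of 0.0202, 0.0233, 0.00893 and 0.0212. The same omission turned HSP82 in WT at 48 h against 0 h to -0.87 (adjusted p = 0.045; 0.00933 to 0.867 over 17 alternatives) where it had been 0.18 ± 0.45. Differences between the strains' responses at 48 and 72 h were called for 0 of the 10 genes in edgeR, 0 at an unadjusted p under 0.05 and 0 in DESeq2, where 0.192% and 1.04% of all genes were called. Those were 7 positive and 5 negative genes at 48 h and 26 and 39 at 72 h, against 4 and 6 and 11 and 26 under total count scaling.

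The share of HSP82 in the summed counts of the paralogs needs no scaling between libraries. It averaged 3.85%, 9.07%, 5.82% and 6.32% at 0, 12, 48 and 72 h in cnb1Δ, and 3.54%, 3.93%, 5.18% and 5.23% in WT. At 12 h the libraries spanned 8.9% to 9.24% in cnb1Δ, against 2.69% to 4.57% in WT, without overlap. An exact permutation test, two-sided, gave p = 0.1 for this comparison (0.25 adjusted over 10 comparisons), the smallest p that 3 against 3 libraries allow. At 48 h the WT libraries spanned 2.83% to 9.67%, wider than the 3.61% to 7.05% of cnb1Δ. HSC82 thus remained the main Hsp90 transcript in all groups.

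**Figure D5:**
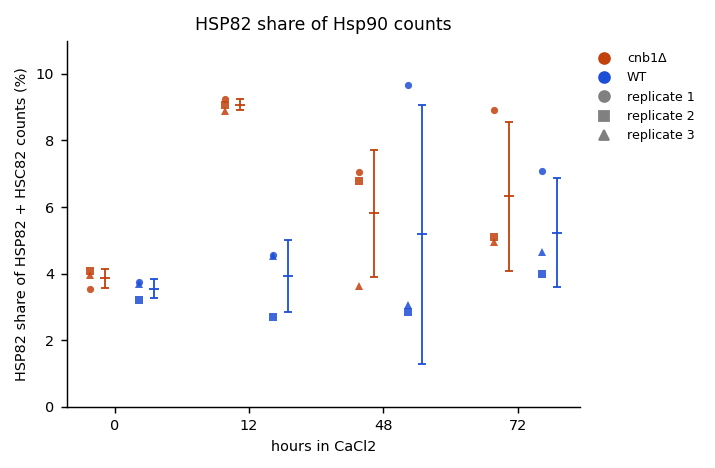
HSP82 as a percentage of summed HSP82 and HSC82 counts in each library, against hours in CaCl2, with cnb1Δ left of WT; bars are means ± SD of 3 libraries. The cnb1Δ libraries at 12 h sit at 8.9% to 9.24%, above all WT libraries at 12 h.

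Other chaperone genes were compared between the strains at 12 h in the same fit, where 8.43% of all genes were called higher and 6.96% lower. A list of 10 genes linked to Hsf1 left out the Hsp90 and co-chaperone genes above and the Hsp70 genes below. It does not stand for all genes that Hsf1 acts on, and it was chosen with earlier results of these data known. Of these 10, 6 were higher in cnb1Δ than in WT at 12 h and 0 lower, with a median log2 fold change of 0.56 against -0.00482 for all genes. They included BTN2 (1.32 ± 0.27) and CUR1 (1.04 ± 0.20), which sort misfolded proteins, and the mitochondrial co-chaperone MDJ1 (0.82 ± 0.17). HSF1 itself averaged 64.5 ± 0.92 CPM in cnb1Δ and 45.7 ± 2.71 CPM in WT (0.50 ± 0.13, adjusted p = 0.0127). Of 13 genes of the Hsp70 system and small heat shock proteins, 2 were higher, the Hsp40 SIS1 (0.83 ± 0.18) and the Hsp70 SSA2 (0.55 ± 0.14), with a median of 0.27; this count is near the share over all genes. The disaggregase HSP104 stood at 0.27 ± 0.44 and was not called. Of 6 further Hsp90 partners, 2 were higher, TAH1 (0.51 ± 0.11) and SGT1 (0.31 ± 0.10), with a median of 0.18. Of 7 genes for Hsp90 clients, 0 were higher and 1 lower, the haem-responsive activator HAP1 (-0.73 ± 0.16), with a median of 0.23. CNA1 and CMP2, the catalytic subunits of calcineurin, were not called, at 0.23 ± 0.12 and 0.26 ± 0.12. Of the 10 Hsf1-linked genes, 2 were higher in cnb1Δ than in WT at 48 h (median 0.34) and 4 at 72 h (median 0.57). None was lower, and of all genes 4.89% and 9.12% were called in either direction. From 0 h to 12 h, 2 of the 10 rose in cnb1Δ and 3 fell in WT. Over all genes the shares were 22.1% and 22.4%. The difference of the 12 h responses was called for 1 of the 10, where 0.976% of all genes were called higher.

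Across the 8 group means of log2 CPM, some of the 10 genes had similar courses. Pearson's r was 0.932 between HSP82 and STI1, 0.956 between HSC82 and AHA1, and 0.963 between SBA1 and CNS1, but 0.59 between HSP82 and HSC82 and -0.728 between HSC82 and CNS1. Among 4168 named genes of sufficient level, those most like HSP82 were SWI4 (0.957), DSE1 (0.948), SGF73 (0.947), ABF1 (0.943) and MDV1 (0.936). Those most like HSC82 were MDG1 (0.987), VID27 (0.983), ORT1 (0.978), LPD1 (0.978) and PCL6 (0.976). For STI1 they were MDV1 (0.945), OCA1 (0.941), OXP1 (0.941), AZF1 (0.937) and BUD9 (0.937). These correlations describe 8 points that share libraries and scaling, and the ranking picked the highest of many.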

How the data were processed

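Per the submitters' processing notes, featureCounts, DESeq2 and build R64 were used. No aligner, annotation release, strand setting or rule for multiply matching reads is given in the sources used here. Files deposited by the authors hold raw counts for 7126 genes and TPM values for 6744 genes in the same 24 libraries. The count table names 5110 genes by symbol, and RefSeq's gene table supplied 240 more.

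Counts were filtered with edgeR's filterByExpr, scaled by TMM and fitted in edgeR 4.0.16 (R 4.3.3), with its quasi-likelihood test, as 1 model of 8 group means with 16 residual degrees of freedom. Log2 fold changes carry an approximate SE, the log2 fold change over the square root of F. The 13 comparisons were each adjusted over 6253 genes at a threshold of 0.05. Deposited TPM values gave levels per length and, with a pseudocount of 1 or 0.1, limma alternatives (limma 3.58.1); DESeq2 1.42.0 was another. The procedure was tested on simulated data in which all genes had the same dispersion and changes were put in a single group. That setting is simpler than these data, and no result here rests on it. Sequences were read from the R64 genome. Replicates were compared by chi-square over genes with at least 20 counts in the pair.

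Replicate numbers from the titles paired libraries where all 3 same-number correlations were over 0.1. The comparisons that met this were WT at 12 h against 0 h, with correlations of 0.228 to 0.396, and cnb1Δ against WT before treatment (0.193 to 0.229), after 48 h (0.162 to 0.569) and after 72 h (0.314 to 0.689). The members and gene lists were chosen with earlier results of these data known. All 10 members are shown for every comparison in the figure of log2 fold changes, but the text does not name each one every time. Of other lists, up to 4 called genes with the largest change could be named, besides HSF1, CNA1, CMP2 and CNB1, and for HSP82, HSC82 and STI1 the 5 most correlated genes; HSP104 was added after its values were seen.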

Additional observations from a re-analysis of the deposited data

Results flagged for a closer look

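The 12 h response differed between the strains for STI1, by a log2 difference of 1.31 (cnb1Δ minus WT), and for AHA1, by 0.92, each by a test of the difference itself in edgeR. Both were positive in all 3 cnb1Δ libraries relative to all 3 WT libraries after subtracting each strain's 0 h mean. Such a lack of overlap was seen for 7 of the 10 genes, so it does not set STI1 and AHA1 apart. Its share over all genes is not given here.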

How the results depend on the processing

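The 10 genes in 13 comparisons gave 130 results, recomputed in 2494 alternatives: 2367 kept their side of the threshold (154 of them, uncalled both times, changed sign), 68 gained a call, 53 lost one, and 6 changed sign where either value was called. The sign changes were HSP82 in WT at 48 h against 0 h, -0.87 without WT replicate 1 of 48 h (-0.87 to 0.51 with 1 replicate left out) and -0.85 without replicate 1 of 48 and 72 h in both strains, and HSC82 in cnb1Δ at 72 h against 0 h, 0.053 under total count scaling and 0.027 in each of the 3 limma fits on TPM. The cause was not tested.

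For the strains at 48 h, 0 genes became 1 in DESeq2, 1 with the replicate block and 4 without the late replicate 1 libraries, and 0 to 4 when 1 replicate was left out. At 72 h, 0 became 1 with RLE size factors, 2 in DESeq2, 2 with the replicate block and 0 to 1 with 1 replicate left out. For the difference of the 12 h responses, 2 became 3 in DESeq2, which added HSC82, 1 in limma on TPM with a pseudocount of 1 or 0.1 and 0 with no filter, but 5 in the compared groups alone, with the replicate block and without the late replicate 1 libraries. Pairing by number was not measured for that comparison itself. For its parts, 12 h against 0 h, the same-number correlations were 0.228 to 0.396 in WT and 0.0947 to 0.44 in cnb1Δ. Numbers did not pair the libraries in WT at 72 h against 0 h, where the block gave 8 genes for 6. No other paired call changed than those given with the results. Leaving out 1 replicate gave 4 to 5 genes for the strains at 12 h and 4 to 5 for cnb1Δ at 12 h against 0 h. The HSP82 share at 12 h stayed within 8.99% to 9.16% in cnb1Δ and 3.61% to 4.55% in WT.

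With 3 libraries a group, a gene that was not called is not shown to have equal levels.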
